A study of Mus musculus with 2 samples.

Results

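The genes described here are 10 regulators that set epithelial against mesenchymal character: the repressors Zeb1, Zeb2, Snai1 and Snai2, and the activators Grhl1, Grhl2, Ovol1, Ovol2, Esrp1 and Esrp2. They were taken by name, as every non-control probe whose array name or current symbol is one of the 10, which gave 16 probes of the 41168 used and 10 genes of 28781. Another 5 probes carry an older name of a member and are given beside them. The arrays compared 2 mouse lines labelled as neural progenitor cells of strain 129/Ola, with 1 array per line, and values are given as read with EGFP or with Pax6. Both lines derive from N31, progenitors made from an induced pluripotent stem cell, and both carry Oct3/4, Sox2, Klf4 and c-Myc under doxycycline control. One line overexpressed EGFP, a fluorescent protein, and the other Pax6, a transcription factor of the eye and forebrain, each from a CAG promoter vector brought in by Tol2 transposition. RNA came from cells exposed to doxycycline for 24 h, when only the EGFP cells had changed shape. The labels do not say whether either line is 1 clone or a mixed population.

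Zeb and Snail proteins are zinc finger repressors that bind E-box sequences in promoters of epithelial genes, with E-cadherin (Cdh1) the best known target. Grainyhead-like (Grhl) and Ovo-like (Ovol) factors maintain epithelial gene programmes, and several of them act against Zeb genes. Esrp proteins bind RNA and direct epithelial splice forms of genes such as Fgfr2, Cd44, Ctnnd1 and Enah. The set is followed here because a shift from mesenchymal to epithelial character has been described early in reprogramming. Whether these neural progenitors go through such a shift was not tested.

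Across the arrays, 64.7% of spots with EGFP and 67.2% with Pax6 cleared the software's background limit, and none was saturated. With 1 array per line there was no replicate and no test. Differences are log2, Pax6 minus EGFP, after each array was scaled to its 75th percentile. The value after ± is the scanner software's measurement error, which does not cover variation between cultures. For bright probes it comes almost wholly from the software's preset 10% error of the signal, so it is near 0.20 for each of them. A multiple of it is therefore no level of significance. A gene was counted as different at 2-fold or more. Of 19251 genes that at least 1 array detected, 4.77% passed that size, 2.35% higher and 2.43% lower on the Pax6 array. Every count in a list below is to be read beside these shares. Pax6 itself read 557 with EGFP and 822 with Pax6 at the probe that stands for it, 1.27-fold higher, and whether that probe reads the transgene was not determined, so this value does not check the labels on which every direction depends. Of 20 neural progenitor markers, 17 were above background, among them Sox2, with signals of 79.2 with EGFP and 307 with Pax6. Both lines carry Sox2 under doxycycline control, and whether this Sox2 probe reads that transgene was not determined. Sox3, Hes5 and Olig2 were detected on neither array, and Slc1a3, Nes and Cd24a were at least 2-fold lower with Pax6.

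Within the set, 1 repressor was at least 2-fold higher with Pax6 and 1 activator at least 2-fold lower, of 9 members above background. Over all genes, 2.35% were higher and 2.43% lower by this size. Zeb1 was 2.04-fold higher and Esrp2 was 2.66-fold lower. The other 7 members differed by less than 2-fold, and neither array detected Esrp1 well above background. The median difference was 0.04 over the 4 repressors and -0.37 over the 5 activators with a value, beside -0.01 over all genes. RNA of whole cultures was measured, so fewer cells of a type and less RNA per cell cannot be told apart in any of these values.

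**Figure D1:**
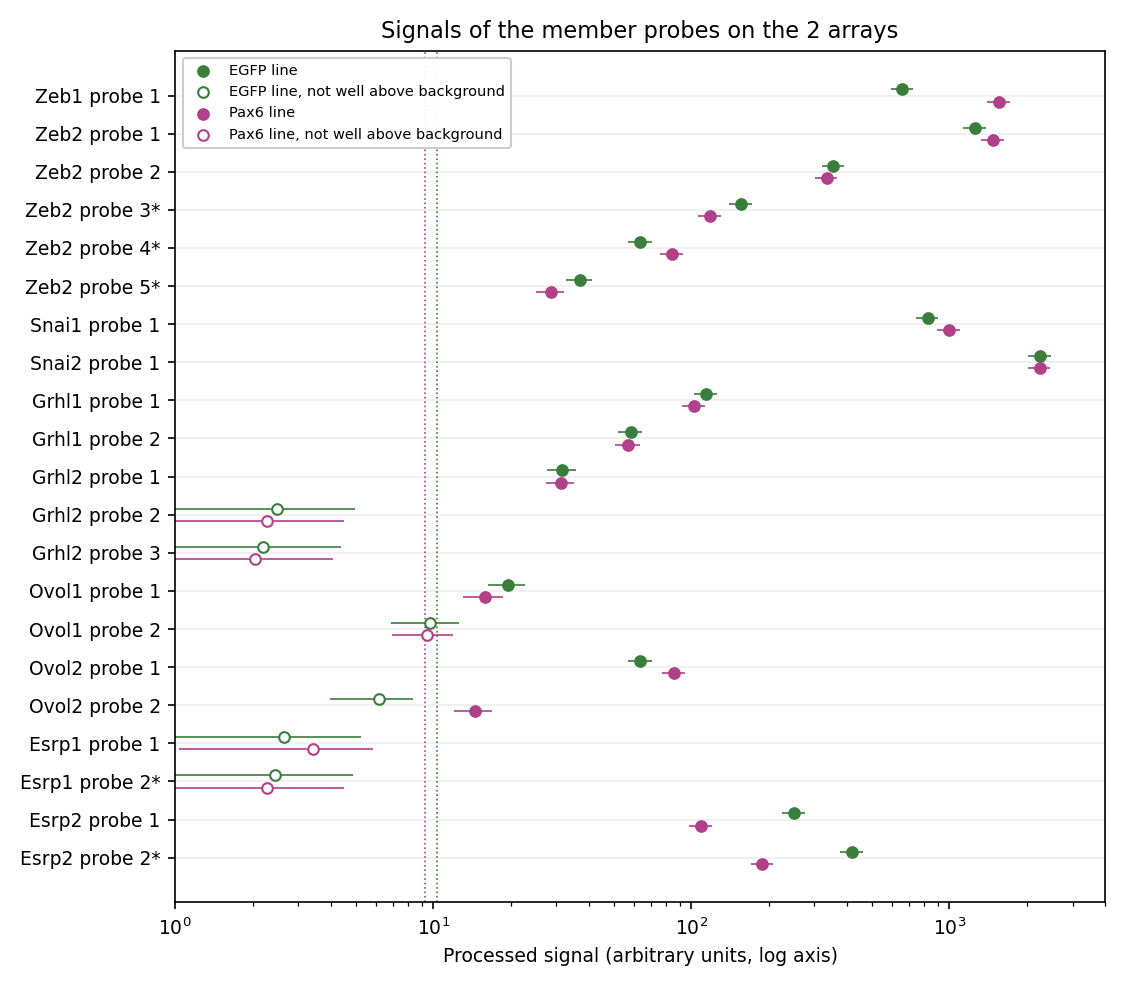
Processed signal of each member's probe on the EGFP and the Pax6 array, on a log axis, with the software's signal error and with open symbols for signals not well above background. Dotted lines mark the lowest signal well above background on each array, and an asterisk marks a probe under an older name. The pair of points lies clearly apart for Zeb1 (657 and 1556) and Esrp2 (250 and 109), and near together for Snai2 (2246 and 2239).

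Zeb1, a repressor with zinc finger clusters at both ends and a homeodomain between them, was the member furthest above 0. Its probe, listed on the array as Zfhx1a (chromosome 18, 5978371 to 5978430, mm7), had signals of 657 with EGFP and 1556 with Pax6. The log2 difference was 1.03 ± 0.20, which is 5.04 times the software's largely preset error and no measure of spread between cultures. Among all genes, 2.23% lay higher. Zeb1 has a single probe, so no second probe checks the value, and its error interval, 0.82 to 1.23, spans the 2-fold size.

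Zeb2, the close relative of Zeb1, was nearly equal on the arrays. Its brighter probe, listed as Zfhx1b (chromosome 2, 44994565 to 44994624), gave 1259 with EGFP and 1475 with Pax6, a difference of 0.01 ± 0.20. The other probe by the rule (44995859 to 44995918) gave 355 and 335, a difference of -0.30 ± 0.20. These probes stood on opposite sides of 0, each by less than 2 times its error. The further probes with an older name of Zeb2 ranged from -0.61 to 0.19. That for AK031541 (45028303 to 45028362) differed by -0.61 ± 0.21, that for NM_001033635 (44991829 to 44991888) by 0.19 ± 0.21 and that for AK051204 (45016569 to 45016628) by -0.59 ± 0.25. All Zeb2 probes stayed below 2-fold, and which transcript forms they read was not determined.

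Snai1, known as Snail, and Snai2, known as Slug, are zinc finger repressors that act early when cells leave the epithelial state. Snai1 (chromosome 2, 167283227 to 167283286) gave 823 with EGFP and 995 with Pax6, a difference of 0.06 ± 0.20. Snai2 (chromosome 16, 14250104 to 14250163) gave 2246 and 2239, a difference of -0.22 ± 0.20. The raw signals of Snai2 were almost the same, and the negative sign comes from the scaling, since the 75th percentile was 854 with EGFP and 991 with Pax6. Neither difference reached 2 times its error.

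Snail proteins are known to bind their own promoter, so the sequence before the Snai1 start is shown with its E-box. The word CAGGTG, or CACCTG on the other strand, is the E-box searched here on both strands, in the 250 bases before each start in RefSeq's GRCm38.p6 table. It is present in 17.2% of 32851 promoters. An entry was found for 4 members (Zeb2, Snai1, Grhl1 and Ovol2, with 8 promoters), and of these only Snai1 held the word, 126 bases before its start. The Snai1 sequence (chr2:167537945-167538194, plus strand) is given 5′ to 3′ with the E-box in capitals.
Snai1: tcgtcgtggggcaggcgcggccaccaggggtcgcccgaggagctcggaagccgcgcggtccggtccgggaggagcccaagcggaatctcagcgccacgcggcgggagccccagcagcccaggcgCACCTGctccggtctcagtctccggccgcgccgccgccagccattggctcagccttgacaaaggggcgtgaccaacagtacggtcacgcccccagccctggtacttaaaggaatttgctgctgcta
A match describes the letters and is not shown to be a site in these cells.

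Grhl1 and Grhl2 encode grainyhead-like factors, of which Grhl2 is a direct activator of epithelial junction genes. The brighter Grhl1 probe (chromosome 12, 22453628 to 22453687) gave 114 with EGFP and 103 with Pax6, a difference of -0.37 ± 0.21. The second Grhl1 probe (22453716 to 22453776) gave 58.2 and 56.9, a difference of -0.25 ± 0.22. Both probes were slightly lower on the Pax6 array, by less than 2 times their errors.

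Grhl2 was faint. Its only probe above background (chromosome 15, 37474056 to 37474115) gave 31.5 with EGFP and 31.3 with Pax6, a difference of -0.23 ± 0.26. The other 2 Grhl2 probes gave signals between 2.04 and 2.49, none of them well above background. No difference in Grhl2 was resolved at this signal.

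Ovol1 and Ovol2 are zinc finger repressors that support epithelial identity, and Ovol2 is known to repress Zeb1. One Ovol1 probe (chromosome 19, 5444015 to 5444074) gave 19.5 with EGFP and 15.8 with Pax6, a difference of -0.52 ± 0.34. This is the member next below the 2-fold size, and its signals were close to the lowest ones well above background (10.3 with EGFP and 9.30 with Pax6). The other Ovol1 probe, at 9.71 and 9.42, was not well above background. With normexp background correction, which damps dim signals, the Ovol1 difference was -0.05.

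Ovol2 has probes for separate transcript records. The probe for NM_026924 (chromosome 2, 144046321 to 144046380) gave 63.4 with EGFP and 85.6 with Pax6, a difference of 0.22 ± 0.22. The probe for NM_152947 aligned in blocks across 13063 bases (144058718 to 144071780) and gave 6.16 and 14.5. Only the Pax6 signal was well above background, which gave a lower bound of 1.21-fold higher there for this transcript. On the log2 scale that bound is 0.27, less than its error of 0.57. Ovol2 was thus the activator with a value above 0, and the 0.22 of its brighter probe is about the size of its error.

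Esrp1 and Esrp2 encode the paired epithelial splicing regulators. Esrp1, listed as Rbm35a (chromosome 4, 11259829 to 11259888), gave 2.63 with EGFP and 3.42 with Pax6. A second probe under its older name (11284996 to 11285055) gave 2.44 and 2.26. None of these signals was well above background, so no fold is given for Esrp1. Esrp2, listed as Rbm35b (chromosome 8, 104730046 to 104730105), gave 250 with EGFP and 109 with Pax6. Its log2 difference of -1.41 ± 0.21 was 6.86 times the software's largely preset error, and 0.82% of all genes lay lower. A second probe under the older name (104729504 to 104729563) gave 421 and 189, a difference of -1.37 ± 0.21 or 2.59-fold lower. The Esrp2 probes thus gave nearly the same difference on separate stretches of the locus.

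**Figure D2:**
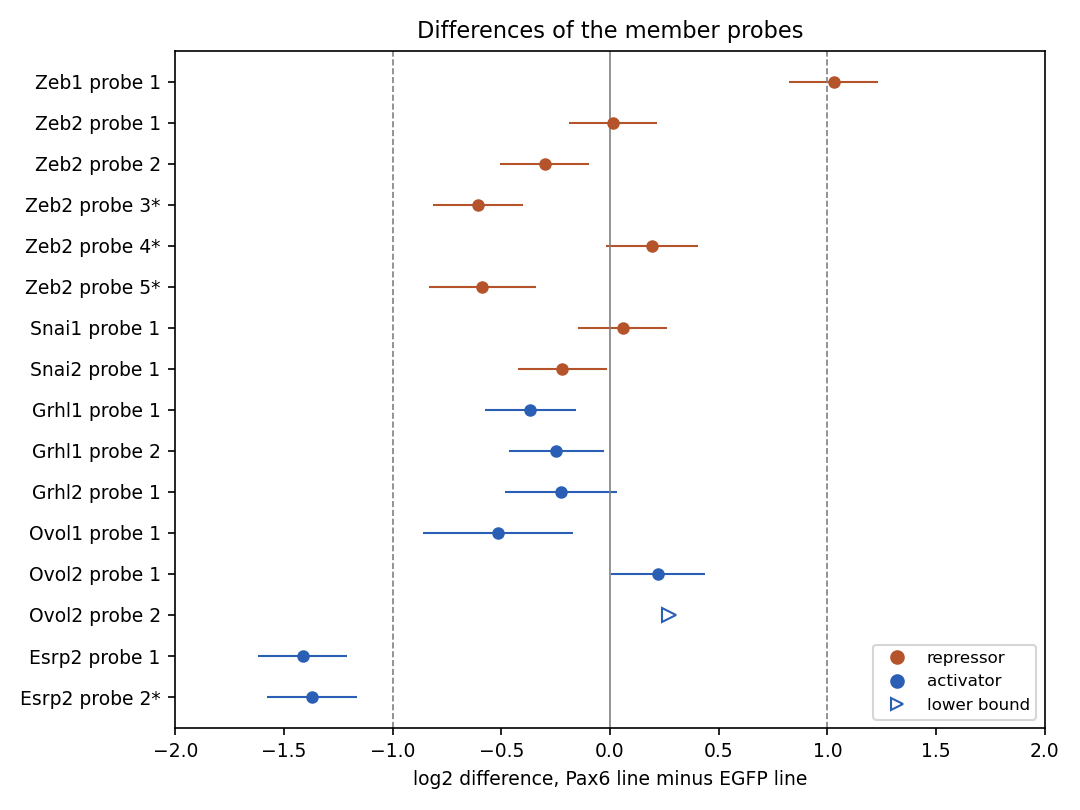
Log2 difference (Pax6 minus EGFP) of every member probe, with the software's measurement error and dashed 2-fold lines. Probes not well above background on either array are left out, the triangle is a lower bound, and an asterisk marks a probe under an older name. Zeb1 at 1.03 and both Esrp2 probes at -1.41 and -1.37 lie past the 2-fold lines, and the Zeb2 probes spread from -0.61 to 0.19.

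**Figure D3:**
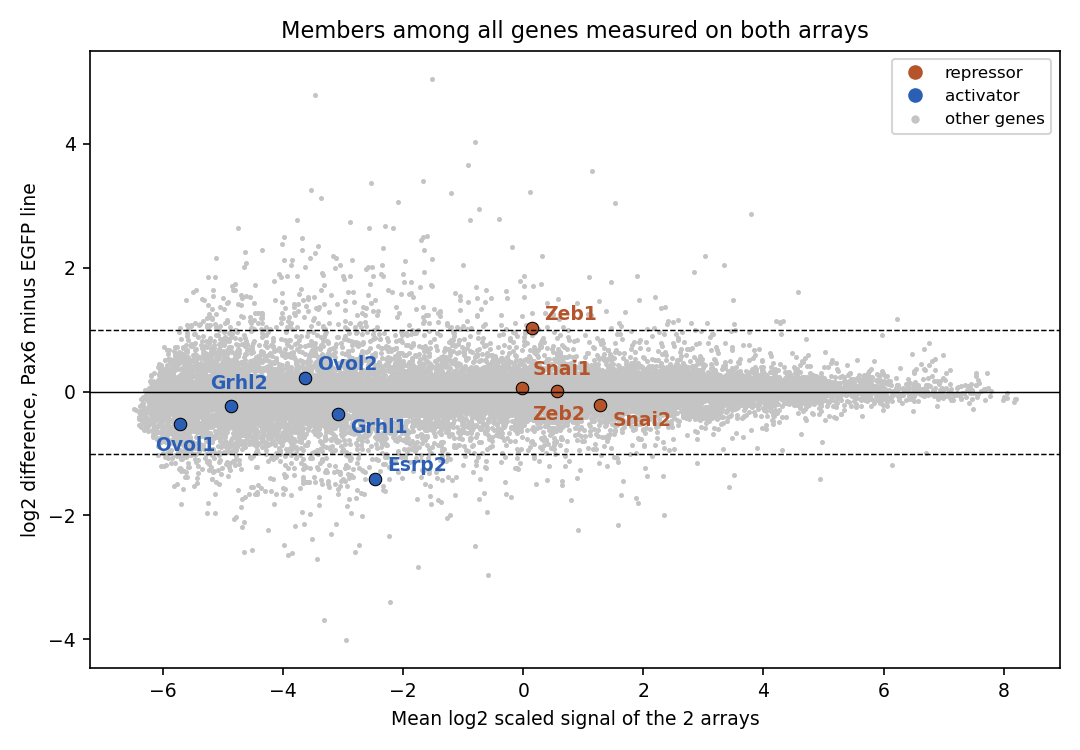
Log2 difference against mean log2 level for the genes measured on both arrays, with the members marked and dashed 2-fold lines. Zeb1 at 1.03 and Esrp2 at -1.41 lie past the lines, and Ovol1 and Grhl2 lie at the dim end of the cloud.

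The remaining factors of each family and related regulators were followed from fixed lists. Of 15 further repressors and mesenchymal transcription factors, 13 were above background, with 0 higher by 2-fold and 1 lower, and a median of 0.26. The one lower was Twist2, a bHLH factor (chromosome 1, 91755751 to 91755809), with signals of 442 with EGFP and 31.8 with Pax6 and a difference of -4.01 ± 0.23 (-2.40 with normexp). Its paralogue Twist1 gave 2394 and 3315, a difference of 0.26 ± 0.20. Snai3, the third Snail gene, was too dim on both arrays for a value. The brightest of this list, the E-protein genes Tcf4 and Tcf3 and the zinc finger gene Zfp281, differed by 0.46, -0.03 and -0.00 respectively, each ± 0.20.

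Of 16 further epithelial transcription factors, 9 were above background, with 0 higher by 2-fold and 2 lower, and a median of 0.15. Elf3, an Ets factor of epithelia, gave 166 with EGFP and 85.0 with Pax6, a difference of -1.18 ± 0.21. With normexp the Elf3 difference was -0.77. Neither lower gene reached 2-fold under that correction, the other by a narrow margin. The other lower gene also had a dim second probe near 0. The brightest of the others, Foxa2, Tfap2a and Klf5, differed by -0.10, 0.50 and 0.04. Grhl3 and Ovol3 had no probe under their symbols.

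Epithelial genes listed as targets of such regulators had a median below 0, though 14 stayed within 2-fold and 8 lay above 0. Whether the members act on them in these cells was not tested. Of 34 epithelial genes, 30 were above background, 16 of them at least 2-fold lower with Pax6 and 0 at least 2-fold higher, beside 2.43% and 2.35% of all genes. Their median was -1.04 (-0.57 with normexp, with 9 genes lower), and 22 lay below 0. Lower values in this group were part of the earlier results from which the lists were drawn, so the count is not independent support.

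Cdh1, the adhesion molecule E-cadherin, gave 594 with EGFP and 65.3 with Pax6, a difference of -3.40 ± 0.21 over 8 spots. Lsr, a receptor of tricellular junctions, gave 5397 and 1407, a difference of -2.15 ± 0.20. Epcam, an epithelial adhesion molecule, gave 231 and 68.9, a difference of -1.96 ± 0.21. These 3 genes were 10.6-fold, 4.45-fold and 3.90-fold lower with Pax6. Krt19 and Krt8, keratins of simple epithelia, differed by -1.66 ± 0.20 and -1.54 ± 0.20, and Cldn3, a tight junction claudin, by -1.56 ± 0.22 (-0.68 with normexp). Some junction and protease genes did not share this direction. The junction genes Cldn7 and Pkp2 differed by 0.20 ± 0.26 and 0.24 ± 0.20. Spint2, a protease inhibitor, differed by 0.31 ± 0.20, and St14, the protease matriptase, by 0.74 ± 0.21, the highest value of the list. Spint1, a protease inhibitor like Spint2, was lower, with probes at -1.13 ± 0.20 and -1.06 ± 0.20. Prss8, another membrane protease, lay on the lower side too. It was well above background on the EGFP array alone, with dim signals of 15.6 with EGFP and 8.84 with Pax6. This gave a bound of 1.94-fold lower, or -0.96 ± 0.43 on the log2 scale, but -0.17 with normexp.

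Markers of epithelial or surface ectoderm cells largely repeat the epithelial genes above. Of 13 such markers, 10 were above background on each array and 6 were at least 2-fold lower. Each of these 6 is also in the epithelial list above, so they add no separate evidence. Krt5 and Krt14, which are not in that list, differed by 0.16 ± 0.24 and -0.22 ± 0.20. The summed signal of the list, as a multiple of the array's 75th percentile, was 72.0 with EGFP and 26.3 with Pax6, of which Krt18 and Krt8 made up 96.3% and 95.7%. Cldn4 and Trp63 were detected on neither array. Of 12 fibroblast markers, 10 were above background with EGFP and 11 with Pax6, with 3 at least 2-fold higher and 4 lower. Their sums on the same scale were 304.8 and 299.6, of which S100a4 and Col1a2 made up 97.5% and 93.7%. The lists overlap with the gene groups above (Cdh1, Epcam, Cldn6, Krt8, Krt18, Krt19, Twist2 and the collagens among others). The part of a changed cell mixture in the member differences was not tested.

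Because Zeb and Snail proteins bind the E-box, promoters of the target list are shown for 3 genes lower on the Pax6 array and 1 not. They were chosen after their values were seen, and each promoter shown holds several E-boxes. Of the 34 genes, 22 had a promoter entry, and Cdh1 was not among them. Of these, 15 genes held an E-box in any promoter, beside 17.2% of all promoters in the table, a share counted per promoter. The list was chosen as genes these regulators act on, so its share of E-boxes is not independent support. Genes with an entry have 29 promoters in all, which raises the chance of a match for genes with several. Among the 12 genes with an entry that were at least 2-fold lower, 7 held the word, and among the 7 others with a value, 5 did. The remaining 3 with an entry (Cldn4, Ocln and Crb3) also held it but were too dim on both arrays for a value. Of the lower genes, Cldn3, Spint1, Bspry, Jup and Marveld2 had an entry without the word. They are not shown, so the printed sequences do not stand for all lower genes. The Lsr window is chr7:30973470-30973719 (minus strand), that of Ap1m2, a sorting adaptor subunit, chr9:21312334-21312583 (minus strand), that of Epcam chr17:87635729-87635978 (plus strand) and that of Spint2 chr7:29281978-29282227 (minus strand). Capitals mark each E-box, which occurs 4 times in Lsr, 4 times in Ap1m2, 2 times in Epcam and 3 times in Spint2.
Lsr: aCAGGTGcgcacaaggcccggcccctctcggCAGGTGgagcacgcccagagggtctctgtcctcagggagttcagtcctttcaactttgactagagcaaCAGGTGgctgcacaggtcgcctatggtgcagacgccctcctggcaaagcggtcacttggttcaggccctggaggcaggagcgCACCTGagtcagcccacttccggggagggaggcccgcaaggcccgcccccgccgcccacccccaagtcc
Ap1m2: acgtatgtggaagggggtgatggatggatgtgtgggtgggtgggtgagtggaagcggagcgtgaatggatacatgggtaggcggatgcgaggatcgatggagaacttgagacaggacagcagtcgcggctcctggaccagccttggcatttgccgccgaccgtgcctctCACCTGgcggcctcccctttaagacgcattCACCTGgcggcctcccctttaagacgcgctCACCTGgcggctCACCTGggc
Epcam: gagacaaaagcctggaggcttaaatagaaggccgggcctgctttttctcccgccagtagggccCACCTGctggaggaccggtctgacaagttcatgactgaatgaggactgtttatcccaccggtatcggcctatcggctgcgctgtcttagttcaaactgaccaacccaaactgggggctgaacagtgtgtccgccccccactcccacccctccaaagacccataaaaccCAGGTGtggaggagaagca
Spint2: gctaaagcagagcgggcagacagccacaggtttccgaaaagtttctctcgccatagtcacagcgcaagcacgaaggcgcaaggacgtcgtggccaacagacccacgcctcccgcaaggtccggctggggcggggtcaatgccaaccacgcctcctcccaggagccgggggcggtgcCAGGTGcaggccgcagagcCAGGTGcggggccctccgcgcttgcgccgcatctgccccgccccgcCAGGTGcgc
Ap1m2 read 37.6 with EGFP and 17.9 with Pax6 and differed by -1.28 ± 0.27, but by -0.33 with normexp, short of 2-fold. Spint2 held 3 E-boxes with a difference above 0. The Grhl-type word AACCGGTT, present in 0.116% of all promoters, was in none of the target promoters. The Ovol-type word CCGTTA, or TAACGG on the other strand, present in 2.18%, was in 1, that of Crb3, a polarity gene too dim on both arrays for a value.

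Mesenchymal genes had no common direction. Of 20, 19 were above background, 1 was at least 2-fold higher, 3 were at least 2-fold lower and the median was 0.12. Col3a1, a fibrillar collagen, gave 3152 with EGFP and 13889 with Pax6, a difference of 1.93 ± 0.20. Col1a1 and Col1a2, the chains of type I collagen, differed by -2.33 ± 0.21 and -1.18 ± 0.20, and Tagln, an actin-binding protein of smooth muscle, by -1.75 ± 0.20. Collagen genes thus lay on both sides of 0.

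**Figure D4:**
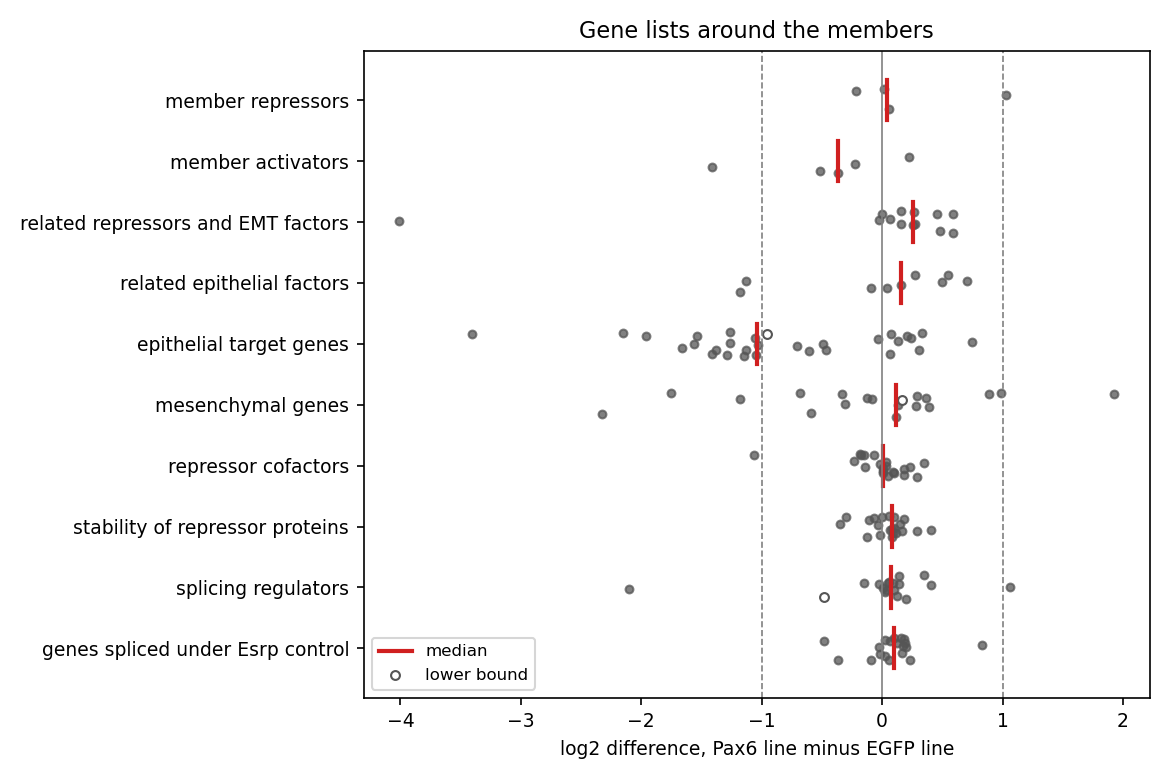
Log2 differences (Pax6 minus EGFP) of the genes in each list, 1 point per gene, with the list's median as a red bar, bounds as open circles and dashed 2-fold lines. The epithelial target genes have a median of -1.04 and the member activators -0.37, and the medians of the other groups lie between 0.01 and 0.26.

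Repressors of this kind need partner proteins to silence promoters. Of 21 cofactors, all were above background, 0 were at least 2-fold higher, 1 was lower and the median was 0.01. That 1 gene is 4.76% of the list, beside 2.43% of all genes lower. The one lower was Loxl2, a lysyl oxidase that is known to interact with Snai1, with 1150 with EGFP and 636 with Pax6 and a difference of -1.07 ± 0.20. Its second probe differed by -1.17 ± 0.21. The brightest cofactors, the remodeller subunit Smarca4, the demethylase Kdm1a and the deacetylase Hdac1, differed by -0.17, 0.05 and 0.01. Scaling by the array median left no cofactor at 2-fold.

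Snail and Zeb proteins are also set by their rate of breakdown. Of 23 kinases, ubiquitin ligases and other genes that govern it, 21 were above background. Fbxo11 and Usp51 had no probe under their symbols. In this list 0 genes were at least 2-fold different in either direction, with a median of 0.08. Fbxl14, a ubiquitin ligase subunit that targets Snai1, differed by 0.41 ± 0.20, and Gsk3b, the kinase that marks Snai1 for breakdown, by -0.30 ± 0.20. The second probe differed by 0.45 ± 0.21 for Fbxl14 and by -0.02 ± 0.20 for Gsk3b. The brightest of the list, Cops5, Stub1 and Csnk1e, differed by 0.18, -0.02 and -0.13. These are RNA levels, and protein amounts were not measured.

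Splicing regulators beside the Esrp genes were mostly level. Of 21, 18 were above background, with 1 at least 2-fold higher, 1 lower and a median of 0.08. Qki and Nova1 had no probe under their symbols. Rbm47, an RNA-binding protein of epithelia, gave 70.1 with EGFP and 18.9 with Pax6, a difference of -2.10 ± 0.29 (-0.74 with normexp). Rbms3 gave 58.9 and 143, a difference of 1.06 ± 0.21, with 1.12 ± 0.22 at its second probe. With normexp it was 0.74, so neither gene reached 2-fold under that correction. The brightest of the list, Hnrnpm, Srsf1 and Khdrbs1, differed by 0.10, 0.14 and 0.02.

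Of 20 genes whose splicing is under Esrp control, Grhl1 among them, 19 were above background and 0 were at least 2-fold different, with a median of 0.10. Fgfr1, a growth factor receptor, gave 790 with EGFP and 1631 with Pax6, a difference of 0.83 ± 0.20, the highest of the list. Its 4 probes ran from 0.33 to 0.94. Fgfr2, the best known Esrp target, was not well above background at any of its 3 probes. Cd44, a hyaluronan receptor, differed by 0.06, Scrib, a polarity gene, by -0.02 and Rac1, a small GTPase, by 0.02, each ± 0.20. Enah, a regulator of actin, was lowest at -0.48 ± 0.20, although its 3 probes ran from -0.48 to 0.34. The arrays read gene levels here, and splice forms were not measured.

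**Figure D5:**
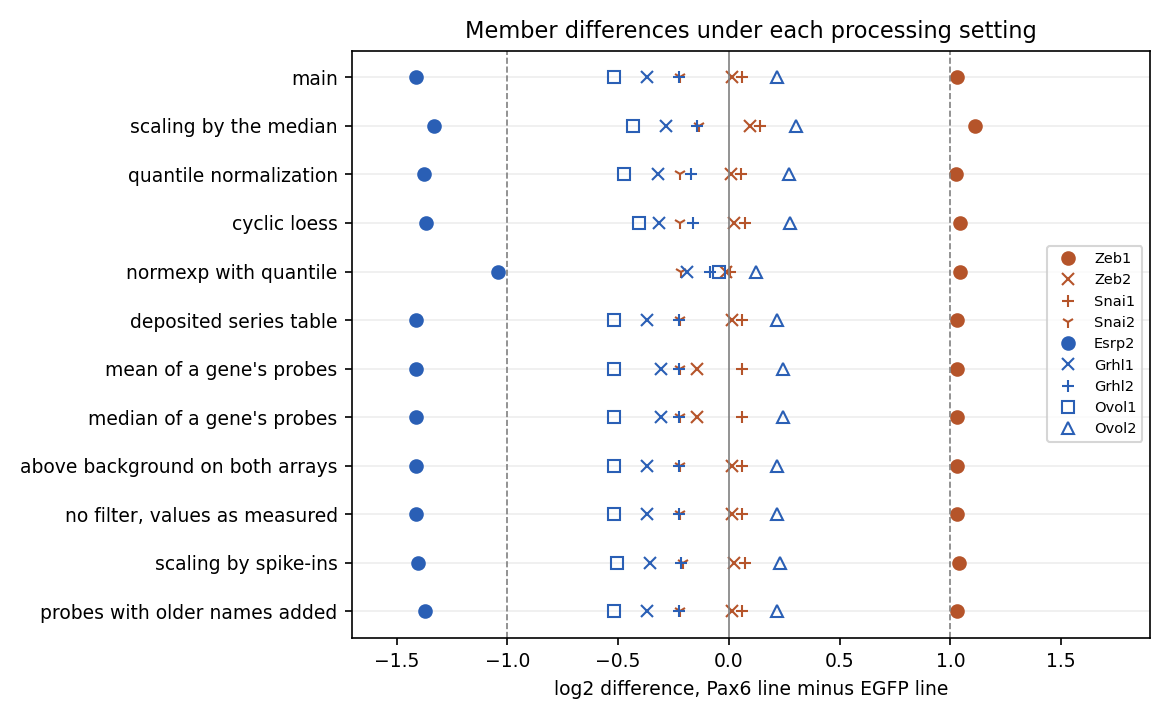
Log2 difference (Pax6 minus EGFP) of each member under the setting used above and the alternatives that change values, with dashed 2-fold lines. Zeb1 stays between 1.03 and 1.11 and Esrp2 between -1.41 and -1.04, and Zeb2 crosses 0.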

How the data were processed

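Total RNA was extracted with ISOGEN, and 0.25 µg per line was amplified, labelled with Cy3 and hybridised to 1 Agilent whole mouse genome array, per the labels' protocols. The deposited intensity values are processed signals of Agilent Feature Extraction 10.7.3.1, background-subtracted per the file headers and not scaled between arrays. The deposited flags (well above background, saturated, outlier) were used per the file headers.

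Outlier spots were left out, replicate spots averaged, and log2 signals scaled to each array's 75th percentile. Among a gene's probes above background on at least 1 array, the one brightest on average stood for it. Probes under an older name of a member were left out of this choice. Esrp2 is thus given by the dimmer of its probes. Where only 1 array was well above background, the difference is a bound against the lowest signal well above it. Genes with a bound enter counts and medians. Current symbols matched 22951 of 41168 probes (55.7%). Coordinates are the array design's (mm7), for which no annotation was used here, so exon or UTR is not stated.

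With 1 array per line no test was made. The members and lists were chosen with earlier results of these data known. Genes were named as all members, the largest 2-fold differences of each list and, in lists with few, the brightest genes, plus 7 always named (Twist1, Twist2, Grhl3, Snai3, Cdh1, Epcam, Rbm47). Others (St14, Spint1, Spint2, Cldn7, Pkp2, Ap1m2, Fbxl14, Gsk3b, Fgfr1, Fgfr2, Enah, Crb3) were picked with their values in view. Some list genes that the rule takes are not reported here. Alternatives changed scaling, normalization, background correction, probe summary, filter and fold size. Scaling by spike-ins and adding older-name probes were chosen after seeing the data. On simulated data for this comparison (19726 genes, 200 changed), 100% were called at log2 changes of -2, -1.5 and 2, and 98% at 1.5. Of 19526 unchanged genes, 25 were called. The changed genes were picked among brighter ones, with noise like the software's error and no variation between cultures. The simulation thus does not cover dim members such as Grhl2 and Ovol1, or a change near 2-fold such as that of Zeb1. Python 3.11.15, R 4.3.3 and limma 3.58.1 were used.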

Additional observations from a re-analysis of the deposited data

How the results depend on the processing

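Of 461 values recomputed under 14 alternatives, 434 stayed within their error or within 1.5 times the count, 27 moved and 0 reversed. Zeb1 was at least 2-fold higher and Esrp2 at least 2-fold lower in all alternatives but the 3-fold rule, where 0 members were higher and 0 lower. The activators' median was -0.084 with normexp background correction, and the repressor median ran from -0.04 to 0.12, crossing 0 as Zeb2 did (-0.14 to 0.10). The epithelial target genes lower by the rule numbered 13 with median scaling, 9 with normexp and 4 at 3-fold. Of genes at least 2-fold different, 49.2% were higher, but 59.3% with median scaling and 61.8% with normexp, where 285 passed instead of 919. Median scaling moved the median of all genes to 0.07. No paired analysis was possible because each line has 1 array. No array could be left out, so the variation between cultures is not covered. Dim signals limit Grhl2, Ovol1 and Esrp1.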

Other observations

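Probes of the same gene did not always give the same difference. Of 79 members and list genes with several probes measured on both arrays, 50 had probes on 1 side of 0, and the probes differed by a median of 0.22 on the log2 scale. For Col1a1 the probes differed by more than 2-fold from each other, at -2.33 and -1.28. Of 12 such genes at least 2-fold different, 9 were past 2-fold at every measured probe, Krt8, Loxl2, Rbms3, Tagln and Spint1 among them. For Marveld3, a tight junction protein, the probes differed by -1.03 and -0.36, and for Patj, a polarity scaffold, they ran from -1.16 to -0.68. With normexp the probe that stands for each gene gave -0.48 for Marveld3 and -0.83 for Patj.

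Of 13 related repressors and mesenchymal factors above background, 10 lay above 0, beside 9064 of 19251 genes, and 1, Twist2, was at least 2-fold different. Sox9, a developmental transcription factor, differed by 0.59 ± 0.20, short of 2-fold.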
